A study of Mus musculus with 46 samples.

Results

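The 6 libraries described here came from mouse embryonic fibroblasts (MEFs) transduced with native Nanog and Oct4 and collected on day 8, 10 and 12 (D8, D10 and D12), with 2 libraries on each day. They were set against the 2 MEF libraries of the same series, so that 8 of its 46 samples enter the main comparison. These 8 were taken by their labels, with earlier results of these data known. The fibroblasts carried an Oct4-GFP reporter (OG2) and received both factors from pMXs retroviruses. Nanog without an added domain (NanogWT here, Nanog+Oct4 in the labels) was the study's poor inducer, set against NanogBiD, in which the N-terminus of SS18 is fused to Nanog. The transduced cultures were kept in an induction medium up to D7 and then in N2B27 with LIF and inhibitors of GSK3 and MEK. The late libraries therefore differed from MEF in the factors, the time in culture and the medium, and these cannot be told apart. The labels give the MEF libraries no treatment and do not say whether any pair of libraries came from separate embryos or wells. The p-values measure the spread between libraries of the same group, pooled over the 33 libraries fitted, and this spread may be technical. The 2 MEF libraries were less alike (Pearson's r 0.9869) than the pairs of D8, D10 and D12 (0.991 to 0.993). A pooled spread may therefore understate that of MEF. Transgene and endogenous transcripts of Nanog and Pou5f1 (Oct4) share 1 gene value, and each library is a bulk culture, in which fewer cells of a type and less RNA per cell cannot be told apart.

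Fibroblasts are defined by a secreted matrix of collagens, proteoglycans and elastic fibres and by an actin-based contractile apparatus that serum and TGF-beta maintain. Reprogramming with pluripotency factors is known to dismantle this programme before the endogenous pluripotency network starts. LIF signals through Stat3, GSK3 inhibition stabilises beta-catenin, and MEK inhibition silences the immediate targets of ERK, so each component of the late medium has target genes that can be read in RNA.

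Expression was deposited as FPKM, fragments per kilobase of transcript scaled to the mapped fragments of the library, and was compared as log2(FPKM + 1). The late libraries were sequenced more deeply than the rest. Relative to the median library they held 1.89 to 3.25 times as many reads, against 0.957 and 0.99 in MEF, as read from the steps of low values (96.1% to 98.5% of low values in the late libraries were whole multiples within 0.05 reads). Genes at 1 FPKM or more numbered 13684 to 13900 in the late libraries, and 12787 and 12417 in MEF. Deeper libraries measure low genes with less error, so a gene listed at 0 in MEF and at a low value in the late libraries may have been below detection in MEF. Of the 16915 genes tested, 970 were at 0 in both MEF libraries, and 180 of these were called higher.

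The late libraries were closer to MEF than to embryonic stem cells. Across all genes, Pearson's r with the MEF mean was 0.936 to 0.947 in the 6 late libraries, against 0.917 and 0.923 at D7, the last day in the induction medium. Their r with the mES library, embryonic stem cells of the same reporter strain, was 0.832 to 0.857, and the 2 MEF libraries themselves stood at 0.859 and 0.858. These are descriptions across genes, which are not independent replicates. Of 7807 genes at 5 FPKM or more in both MEF libraries, 5641 (72.3%) had a 95% interval of the late difference that lay wholly within 1 log2 unit of no change. At D7 the same held for 4431 (56.8%). The late mean rests on 6 libraries and the D7 mean on 2, so the D7 intervals are wider at the same spread. The 2 shares therefore differ in precision as well as in distance from MEF.

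**Figure D1:**
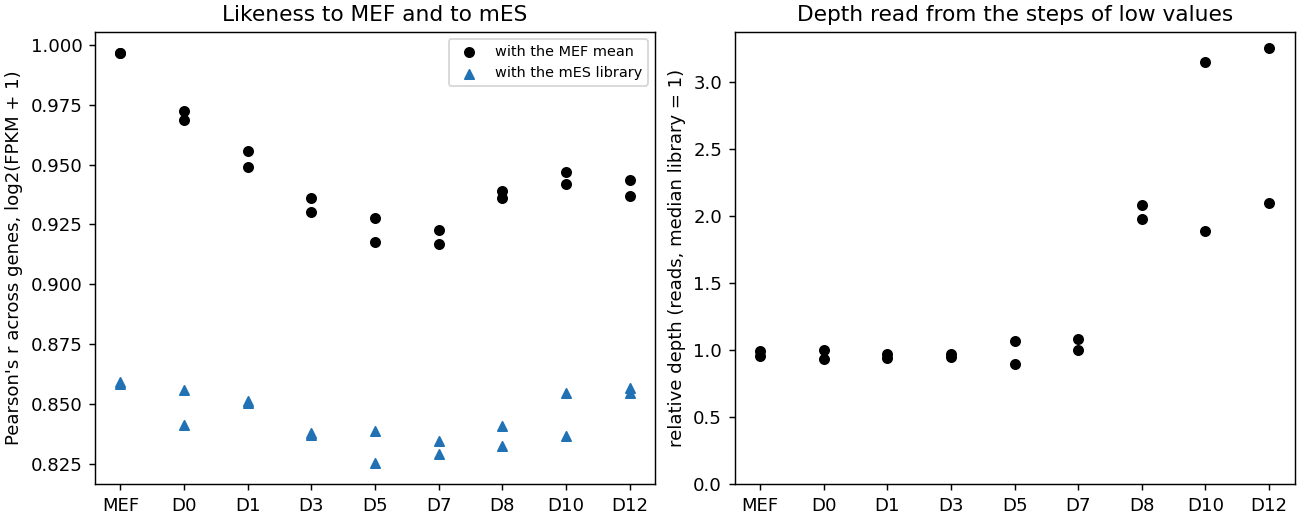
Left, Pearson's r across genes of each MEF and NanogWT library with the MEF mean and with the mES library. Right, relative depth of each library, where 1 is the median library. The r with MEF is lowest at D5 and D7 (0.917 to 0.928) and 0.936 to 0.947 from D8 on, and the 6 late libraries have a relative depth of 1.889 or more, the others 1.082 or less.

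A gene was called where limma's adjusted p was under 0.05 and the difference at least 1 on the log2 scale. The mean of the 3 late days against MEF gave 2091 genes called higher (12.4% of those tested) and 760 called lower (4.49%). In 2014 of the former and 730 of the latter, the 6 late libraries did not overlap the 2 MEF libraries, as they did not in 5759 (above) and 2655 (below) of all genes tested. The shares of all genes called are the background for the list counts against MEF. Taken by day against MEF, 3065 genes were called at D8 (18.1%), 2744 at D10 (16.2%) and 2924 at D12 (17.3%). At D7 the counts were 2347 higher (13.9%) and 1278 lower (7.56%). These comparisons share the 2 MEF libraries. The median gene differed by 0.16 between late libraries and MEF, and the excess of higher over lower calls depended on scaling. With quantile normalization the median moved to -0.06 and the counts became 1465 higher and 1168 lower. With the trend on GC content and length removed they became 1382 and 1101. For this reason, list medians are given relative to the median of all genes. Among the 7807 genes well expressed in MEF, 378 were called higher and 551 lower.

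The genes furthest above MEF were the transgenes, genes of secreted proteins and the neurofilaments. Pou5f1 (chr17:35506018-35510772) measured 3840 and 3390 FPKM at D8, 3640 and 2760 at D10, and 2690 and 1500 at D12, against 0.273 and 0 in MEF and 877 in mES. Nanog (chr6:122707489-122714633) measured between 261 and 470, with a median of 376, against 0.235 and 0.229 in MEF and 365 in mES. Its late level was 1.87 log2 units below that at D7 (called by limma), where it measured 1220 and 1530.

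Outside the transgenes, Penk, the precursor of the enkephalin opioid peptides, was high throughout. It measured 473 at the lowest, 537 at the median and 673 at the highest late library, against 3.6 and 1.13 FPKM in MEF, a difference of 7.44 ± 0.28 (SE; adjusted p = 3.01e-14). Apela (chr8:65028417-65037336), which encodes the apelin receptor ligand Elabela and is known from pluripotent cells, stood at 118 to 162 against 0.371 and 0, and its difference was 6.94 ± 0.17. Gdf7, a BMP family ligand of the roof plate, measured 27.1 to 83.6 and was listed at 0 in both MEF libraries. Cbln2, a synapse-organising secreted protein, measured 70.7 to 108, again with both MEF libraries at 0. Spock1, a secreted proteoglycan, measured 41.5 to 56.6 against 0.0197 and 0. These genes were chosen for a large difference and no overlap with MEF, so their gap is a description.

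Genes of inflammation and the acute phase were also among the 15 furthest above MEF. Ccl8, a monocyte-attracting chemokine, measured 799 and 638 FPKM at D8, 318 and 223 at D10, and 200 and 230 at D12, and was listed at 0 in both MEF libraries. It fell by 1.73 log2 units from D8 to D12. Serpina3n, an acute phase serine protease inhibitor, measured 1630 and 968 at D8 and 348 and 358 at D12, against 6.56 and 1.65 in MEF, and fell by 1.83 over the same days. Saa3, serum amyloid A3, measured 4.4 and 0.55 at D7 and 28.3 to 147 in the late libraries, 4.88 above D7 (limma, called). Dpt, dermatopontin of the dermal matrix, measured 15.1 and 20.6 at D7, 75.5 and 105 at D8, and 197 and 194 at D12, against 2.57 and 0.391 in MEF.

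**Figure D2:**
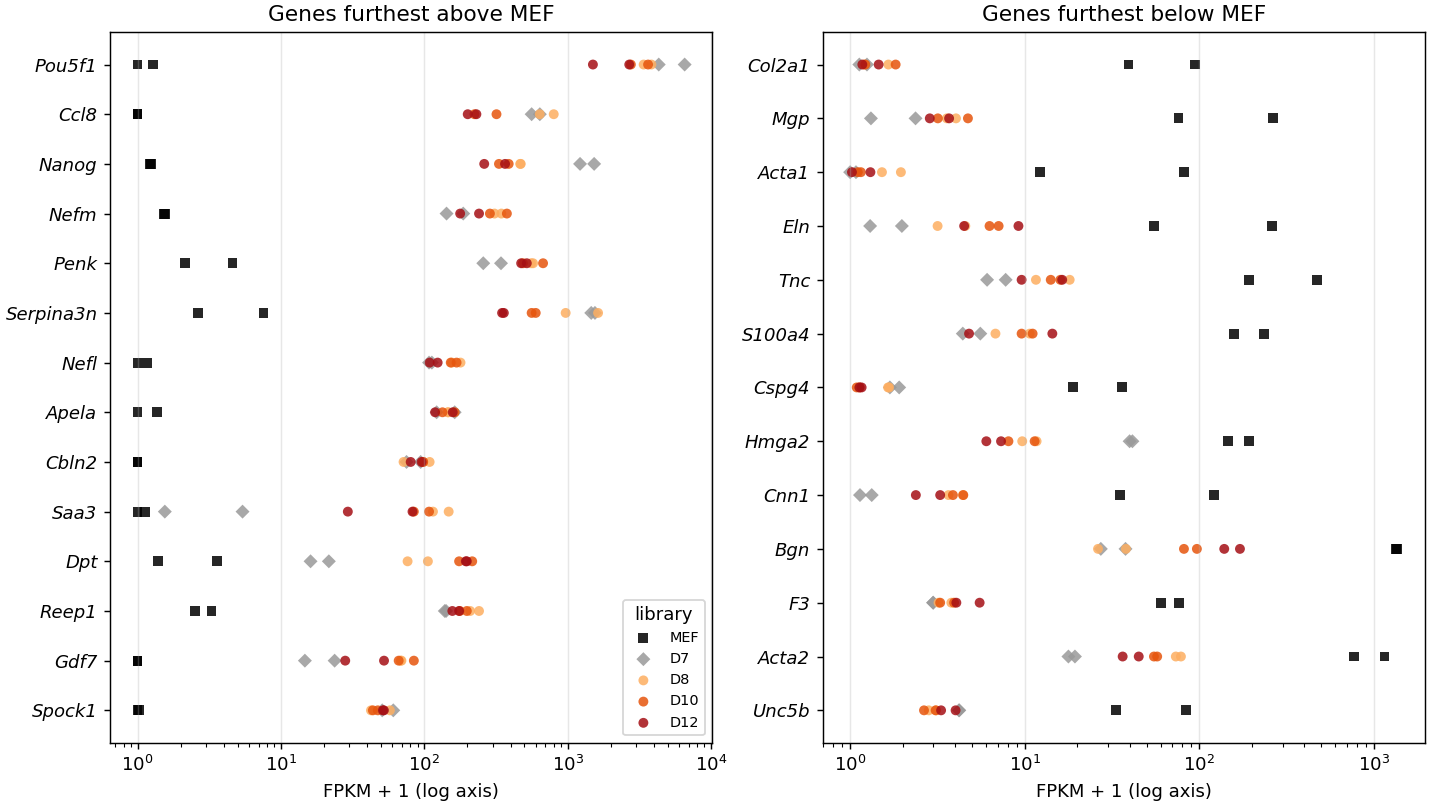
FPKM + 1 on a log axis in each library for 14 of the 15 genes furthest above MEF (left) and 13 of the 15 furthest below (right). Squares are the 2 MEF libraries, diamonds the 2 D7 libraries and circles the 6 late libraries coloured by day. The genes were chosen for no overlap between late and MEF libraries, so the gap is a description. Saa3, Dpt and Hmga2 moved most between D7 and the late days.

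The genes furthest below MEF were led by matrix and contractile genes. Tnc (chr4:63959785-64047015), the matrix protein tenascin C, measured 192 and 472 FPKM in MEF and 8.6 to 17.1 in the late libraries, a difference of -4.43 ± 0.37 (SE). F3, tissue factor, measured 59.5 and 75.9 in MEF and 2.21 to 4.52 late. Hmga2, an architectural chromatin protein of embryonic mesenchyme, measured 145 and 191 in MEF, 38.9 and 40.4 at D7 and 5.03 to 10.7 late, so that it was 2.21 lower than at D7.

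The 2 MEF libraries disagreed on several of these genes. Eln, elastin, measured 261 and 54.1, Mgp, the calcification inhibitor matrix Gla protein, 262 and 75, Col2a1, cartilage collagen, 93.7 and 38.3, and skeletal muscle actin Acta1 11.2 and 80.8. The late libraries, below both by the way these genes were chosen, measured at most 8.21 for Eln, 3.73 for Mgp, 0.823 for Col2a1 and 0.954 for Acta1. Eln and Mgp were already below both MEF libraries at D0, where Eln measured 1.86 and 2.51 and Mgp 16.9 and 10.4 FPKM.

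Contractile genes were the gene list, cell markers aside, with the largest share called lower. Of 37 tested members of the smooth muscle and cytoskeletal contractile list, 27 were called lower and 1 higher, beside 4.49% and 12.4% of all genes, and the list median was -1.49 relative to all genes. Smooth muscle actin Acta2 (chr19:34241090-34255590) measured 770 and 1150 FPKM in MEF. It stood at 77.5 and 72.4 at D8, 56.4 and 54 at D10, and 44 and 35.4 at D12, a difference of -4.08 ± 0.27 (adjusted p = 9.08e-11). Tagln, the actin-binding transgelin, measured 707 and 1120 in MEF and 47.4 to 101 late, and Cnn1, calponin, 34.1 and 120 in MEF and 1.38 to 3.45 late. The myosin light chain Myl9 measured 267 and 349 in MEF and 50.5 to 163 late, and the YAP and serum response target Ccn2 (connective tissue growth factor) 384 and 546 against 37.4 to 70.8. Members nearer to MEF were Cnn3, Tpm4 and Vcl, with differences of -0.56, -0.64 and -0.55, under the 1 unit that a call needs. The cytoplasmic actin Actb was also lower, at 845 to 913 against 1460 and 2410.

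Some of these genes had been lower still on D7. There the list had 28 called lower, and Tagln measured 11.1 and 7.85, Acta2 16.8 and 18.4, and Cnn1 0.33 and 0.139. Set against D7 directly, 12 of the 37 members were called higher in the late libraries and 2 lower, beside 5.1% and 3.91% of all genes. None of the 37 was called higher and 1 was called lower from D8 to D12, beside 3.05% and 1.12% of all genes.

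The matrix genes showed a mixed picture of return, loss and gain. Of 61 proteoglycans and matrix glycoproteins, 15 were called higher and 18 lower than MEF, with a median of -0.49 relative to all genes. At D7, 12 had been higher and 37 lower. Of the 61, 32 were called higher in the late libraries than at D7 and 3 lower, beside 5.1% and 3.91% of all genes. Lox, the collagen cross-linking lysyl oxidase, measured 725 and 606 FPKM in MEF, 30.8 and 30.7 at D7, 165 and 135 at D8, 301 and 320 at D10, and 306 and 367 at D12. Ogn, osteoglycin, measured 135 and 40.2 in MEF, 1.42 and 2.83 at D7, 26.4 and 53.5 at D8, and 118 and 221 at D12. Its late difference from MEF was 0.33 ± 0.41 and was not called. Sparc, the collagen-binding osteonectin, likewise measured 881 to 1450 against 1220 and 884 in MEF, after 385 and 398 at D7.

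Biglycan (Bgn, chrX:73483602-73495933) was still far below MEF at D12. It measured 1360 and 1340 FPKM in MEF, 25.3 and 37 at D8, 80.7 and 95.9 at D10, and 138 and 170 at D12. The gain of 2.29 from D8 to D12 was called, and the D12 libraries remained below both MEF libraries. Fbln2, the elastic fibre protein fibulin-2, stayed at 36.3 to 95.2 against 438 and 687.

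Of 36 collagen genes, 8 were called higher than MEF and 14 lower. Against D7, 14 were higher and 2 lower, beside 5.1% and 3.91% of all genes. Col1a1 (chr11:94936224-94953042), the main chain of type I collagen, measured 3700 and 3340 FPKM in MEF, 196 and 185 at D7, and 442 to 894 late, a difference of -2.42 ± 0.21. Its partner Col1a2 measured 1880 and 1580 in MEF and 434 to 809 late. Type III collagen overlapped MEF. Its gene Col3a1 measured 676 and 277 in MEF and 403 to 778 late. Other collagens were higher. Col6a6, an alternative chain of type VI collagen, measured 22.2 to 31.9 against 0.0847 and 0, and Col28a1 35.2 to 52.8 against 1.06 and 0.336. Without the first MEF library 11 collagens were higher and 14 lower.

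Several proteins that remodel matrix or bind it were above their MEF level. Htra1, a secreted serine protease, measured 387 to 575 FPKM against 72.9 and 59.8, and Postn, periostin, 492 to 991 against 134 and 136. Dcn, decorin, measured 30.5 and 45.8 at D8, 78.9 and 94.4 at D10, and 93.4 and 170 at D12, against 12.3 ± 9.8 (SD, n = 2) in MEF, and its gain of 1.73 from D8 to D12 was called. Thbs2, thrombospondin-2, measured 223 to 322 against 135 and 108, whereas its relative Thbs1, a TGF-beta-activating protein, measured 142 to 358 against 1130 and 1480. Of 38 matrix proteases and inhibitors, 11 were called higher and 7 lower.

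Fibroblast markers were all still expressed, at altered levels. All 22 of the fibroblast markers were tested, and 4 were higher (Postn, Dcn, Lum and Twist1), 10 lower and the rest not called. Their summed level was 6980 to 8370 FPKM in the late libraries and 11000 in each MEF library. Vim, the intermediate filament vimentin, measured 2240 to 2980 against 1890 and 2620, and Fbn1, fibrillin-1, 137 to 158 against 128 and 151, and neither was called. S100a4 (fibroblast-specific protein) measured 3.8 to 13.4 against 158 and 233. Compared with D7, 11 of the 22 were higher and none lower, beside 5.1% and 3.91% of all genes. Of 63 transcription factors of fibroblasts and mesenchyme, 3 were higher and 19 lower than MEF, and at D7 the counts had been 2 and 28. Without the first MEF library 8 were higher, and without the second library of D8 or of D12 5 were. Foxc2, a mesenchymal forkhead factor, measured 18 and 17.8 in MEF and 0.37 to 0.702 late, Prrx2, a limb mesenchyme homeobox factor, 56.3 and 40.3 in MEF and 5.42 to 9.49 late, and Snai1, a factor of mesenchymal identity, 57.5 and 46.8 in MEF and 5.01 to 9.14 late.

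The comparison of late libraries with D7 gave 862 genes called higher (5.1%) and 662 called lower (3.91%). RNA signs moved with it. The nuclear RNA Malat1 measured 6.35 and 7.41 FPKM at D7, 44.8 to 80.3 in the late libraries and 116 and 80.5 in MEF. The mitochondrial transcript ATP6 measured 8250 and 11200 at D7 and 3510 to 7010 late. Across genes the difference between late libraries and D7 had a Spearman's rho of 0.35 with GC content, against -0.053 for the difference between late libraries and MEF. With the trend on GC content and length removed, 617 of 15491 genes were called higher than D7 and 611 lower. List counts against D7 were not taken under that setting. The part of these signs in the gains over D7 was otherwise not tested.

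**Figure D3:**
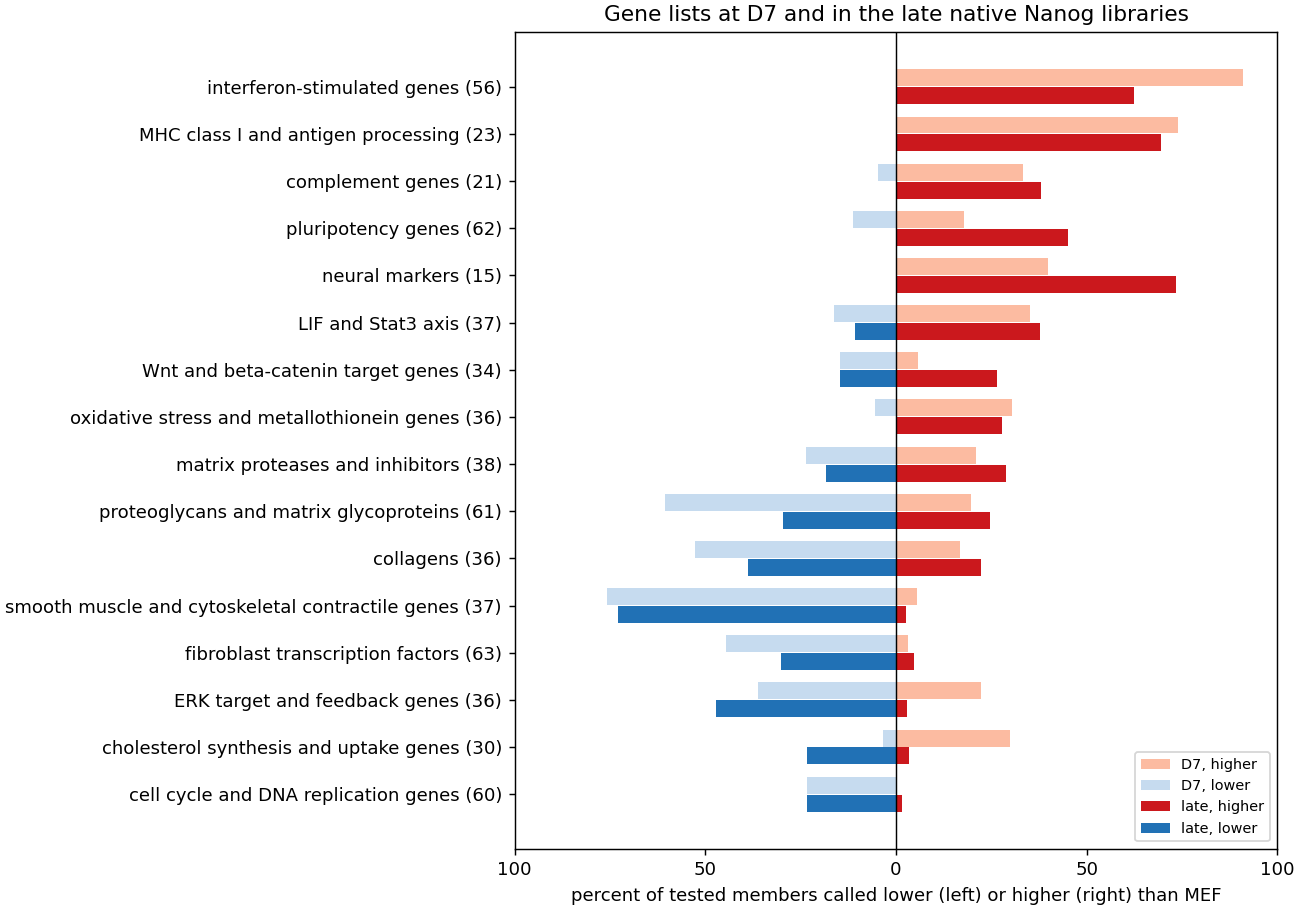
Percent of the tested members of each gene list (number in brackets) called higher (right) or lower (left) than MEF at D7 (pale) and in the late libraries (dark). Interferon genes went from 51 to 35 of 56 called higher, matrix glycoproteins from 37 to 18 of 61 called lower, and contractile genes stayed low with 28 and 27 of 37.

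Interferon-stimulated genes, the antiviral effectors that type I interferon switches on, were mostly above MEF. Of 56 tested, 35 were called higher in the late libraries and none lower, beside 12.4% and 4.49% of all genes, with a median of 1.15 relative to all genes; with quantile normalization 26 were higher. At D7, 51 had been higher. By day, 46 were higher at D8, 27 at D10 and 29 at D12. Late libraries were below D7 for 43 of the 56, beside 3.91% of all genes, and 19 were lower at D12 than at D8, beside 1.12% of all genes.

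Irf7, the amplifier of the interferon response, measured 61.1 and 51.4 FPKM at D7, 25.3 and 18.9 at D8, 6.09 and 4.47 at D10, and 3.31 and 3.28 at D12, against 0.305 and 0.331 in MEF. The D12 libraries were below every D8 library and still above both MEF libraries. Zbp1, a sensor of Z-form nucleic acid, measured 32.9 and 32 at D7 and 4.17 and 5.62 at D12, against 0.0911 and 0 in MEF. Bst2 (tetherin), which holds budding virus at the cell surface, measured 315 and 311 at D7, 321 and 338 at D8, 245 and 164 at D10, and 148 and 106 at D12, against 13.4 and 4.74 in MEF, and its change of -1.39 from D8 to D12 was not called. The immune-associated Fgl2, outside the list, measured 102 and 51.9 at D8 and 10.9 and 8.7 at D12, against 0.714 and 0.968 in MEF.

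MHC class I molecules present peptides at the cell surface. Of 23 tested genes of this class and of antigen processing, 16 were higher than MEF and none lower, with 17 at D7, 19 at D8, 14 at D10 and 10 at D12. Set against D7, 5 were lower in the late libraries, beside 3.91% of all genes. At D12, 9 were lower than at D8, beside 1.12% of all genes. H2-K1, a classical heavy chain, measured 224 and 211 FPKM at D8, 129 and 112 at D10, and 73.5 and 84.6 at D12, against 8.11 and 5.79 in MEF and 266 and 256 at D7. H2-D1 measured 282 and 270 at D8, and 111 and 99.6 at D12, against 14.6 and 14.2. The heavy chains are near-identical in stretches, so reads may be split among them. B2m, the shared light chain, measured 1040 to 1390 against 206 and 150 in MEF and was not called between D8 and D12, with a difference of -0.22. The general folding proteins Calr, Canx and Pdia3, which MHC molecules also use, had late differences of -0.65, -0.17 and -0.55 and were not called.

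Promoters of the interferon and MHC lists were searched for a motif of the interferon response. The core of the interferon-stimulated response element, GAAA and GAAA with 2 bases between them (TTTC and TTTC on the other strand), was looked for in the 250 bases before each gene's start in the RefSeq promoters of GRCm38.p6. It stood in 936 of 27025 promoters (3.46%), in 20 of the 39 interferon genes with a promoter in the table (51.3%) and in 3 of 20 MHC genes (15%). Among the 39, late calls were made for 14 of the 20 that hold it and for 9 of the 19 that do not. At D7, calls were made for 18 of the 20 and 16 of the 19. The 4 stretches below hold a match, shown in capitals, in named genes of the 2 lists, each written 5′ to 3′ on its gene's strand.
Bst2 (chr8:71537563-71537632, minus strand, 130 bases before the start): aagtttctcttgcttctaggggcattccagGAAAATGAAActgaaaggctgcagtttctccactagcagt
Gbp2 (chr3:142620574-142620643, plus strand, 59 bases before the start): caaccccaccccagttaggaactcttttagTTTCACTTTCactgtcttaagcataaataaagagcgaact
Igtp (chr11:58199492-58199555, plus strand, 34 bases before the start): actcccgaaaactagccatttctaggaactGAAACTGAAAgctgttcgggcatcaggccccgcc
B2m (chr2:122147518-122147587, plus strand, 139 bases before the start): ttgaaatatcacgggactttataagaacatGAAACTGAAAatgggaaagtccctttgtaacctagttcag

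Gbp2 and Igtp, GTPases that attack intracellular parasites, measured 9.22 to 29.1 and 7.33 to 18.3 FPKM late, against 1.79 and 0.756, and 1.23 and 0.158, in MEF. The motif was not found in the windows before Irf7, H2-K1, H2-D1, H2-Q4 or Psmb8. A match is a description of the sequence and was not tied to binding here.

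Of 21 tested complement genes, 8 were called higher than MEF and none lower, beside 12.4% and 4.49% of all genes. Against D7, 5 were higher and none lower, beside 5.1% and 3.91% of all genes. C1s1, a protease of the first complement component, measured 22.8 and 17 at D7 and 43 to 116 late, against 3.37 and 0.575. Clu, the chaperone clusterin, measured 58.9 to 110 against 7.5 and 1.52. Of 32 chemokines, cytokines and adhesion genes, 9 were higher and 4 lower, with Icam1, the leukocyte adhesion receptor, at 35.3 to 63 against 2.61 and 0.428, and Cxcl12, a stromal chemokine, at 7.35 to 17.6 against 128 and 53.4.

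Of 62 tested pluripotency genes, 28 were called higher than MEF and none lower, beside 12.4% and 4.49% of all genes, and the 62 include both transgenes. Without the second MEF library 3 were lower. At D7, 11 had been higher and 7 lower. By day, 10 were higher at D8, 27 at D10 and 40 at D12, with 2, 1 and none lower, and 30 were higher at D12 than at D8, beside 3.05% of all genes. Dppa5a, an RNA-binding protein of naive pluripotent cells, measured 0 in both MEF and both D7 libraries. It stood at 0.0498 and 1.75 FPKM at D8, 20 and 40.7 at D10, and 102 and 146 at D12, and the D12 mean was 5.19% of the mES level of 2400. Sox2 (chr3:34650405-34652461), a core pluripotency and neural progenitor factor, measured 0.0517 and 1.94 at D8, 7.91 and 28.3 at D10, and 39.8 and 30 at D12, against 1.41 and 0.337 in MEF. Its D12 mean was 14.1% of mES. Esrrb, an orphan nuclear receptor of the naive network, measured 0.124 and 0.479 at D8 and 3.97 and 9.66 at D12, 4.18% of mES, with 0 in both MEF libraries. Sall4, a zinc finger factor, measured 0.543 and 1.22 at D8 and 3.01 and 7.51 at D12, against 57.4 in mES. The second library was the higher of the pair on all 3 days for Sall4 and Esrrb.

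Other members were already above both MEF libraries at D7. Tfcp2l1, a naive factor downstream of LIF, measured 12.9 and 12.8 FPKM at D7 and 11.5 to 19.5 late, against 0.0918 and 0.0275 in MEF and 107 in mES. Pou3f1, a POU factor of primed epiblast and of the nervous system, measured 37.9 and 29.2 at D7 and 20.1 to 65 late, with 0 in both MEF libraries and 5.65 in mES. Alpl, alkaline phosphatase, is in the chondrocyte and bone marker list and not in the pluripotency list. It measured 7.96 and 6.32 at D7 and 39.2 to 61.5 late, against 2.37 and 0.159 in MEF. Sox15, a relative of Sox2, stayed at 0.112 to 1.59 (difference 0.56 ± 0.19, not called), as against 16.8 in mES. Among study genes not of the pluripotency list, Ss18, the BAF subunit, had a difference of 0.019 ± 0.13. The difference was -0.13 ± 0.23 for Thbd (thrombomodulin) and -0.38 ± 0.19 for the endocytic adaptor Dab2, and none of these was called.

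Neural markers were mostly above MEF. Of 15 neural markers, 11 were higher than MEF and none lower, with a median of 1.66 relative to all genes. By day, 4 were higher at D8, 8 at D10 and 13 at D12, against 6 at D7. From D8 to D12, 8 were higher, beside 3.05% of all genes. The summed level of the 15 markers was 625 to 887 FPKM late and 89.5 to 139 in MEF. Nefm and Nefl, described below and present from D7, made up a large part of the late sum. Dcx, the microtubule protein doublecortin of migrating neuroblasts, measured 0.0822 and 0.0635 at D7, 0.159 and 0.748 at D8, 2.21 and 4.46 at D10, and 20.3 and 31 at D12, against 0.057 and 0.0417 in MEF. Stmn3 and Elavl3, a microtubule regulator and an RNA-binding protein of neurons, measured 0.112 and 0.454, and 0.0508 and 0.966, at D8, and 25.7 and 21.4, and 24.3 and 18.9, at D12. Neuronal tubulin Tubb3 measured 24.9 and 21.9 at D8 and 258 and 223 at D12, against 28.2 and 41.6 in MEF, a gain of 3.31 between these days.

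After Dppa5a, several of the largest named gains from D8 to D12 were of neuronal genes outside the marker list. Ina, the neuronal intermediate filament internexin, measured 0.548 and 2.22 FPKM at D8, 4.45 and 11.1 at D10, and 53.6 and 53.7 at D12. Scrt2, a neuronal repressor of the Snail family, measured 0.0094 and 0.438 at D8 and 29.8 and 19 at D12, with 0 in both MEF libraries. Sst, the interneuron peptide somatostatin, measured 0 and 1.72 at D8, 2.67 and 2.81 at D10, and 30.9 and 35 at D12, and was listed at 0 in MEF, D7 and mES. In the NanogBiD libraries of D12, Dcx measured 33.4 and 53.2, Ina 80 and 105 and Sst 23.3 and 19.4, given as values with no test.

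A second set of neural genes, Nefm, Nefl and Sox1, was present from D7 and had no such course. Nefm and Nefl, the medium and light neurofilament chains, measured 177 to 376 and 108 to 178 FPKM late, 186 and 142, and 112 and 107, at D7, and at most 0.555 and 0.163 in MEF. The annotated spans of these genes overlap on opposite strands, and no source used here says if counting took strand into account, so their reads may be shared. Sox1, a neural progenitor factor, measured 41.4 and 30.6 at D7 and 10.1 to 20.9 late, against 0.0163 and 0. Reep1, an endoplasmic reticulum shaping protein prominent in neurons, measured 156 to 240 against 2.28 and 1.5. Of 7 tested glial markers, 3 were higher: Mbp (18.9 to 27.2 against 0.938 and 1.16), S100b (5.97 to 13 against 0.079 and 0.385) and the radial glia lipid carrier Fabp7. Fabp7 measured 0.67 and 9.36 at D8 and 64.2 and 52.2 at D12, against 2.76 and 4.53. Olig1 and Olig2 fell below the filter, at no more than 0.508 in any late library.

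**Figure D4:**
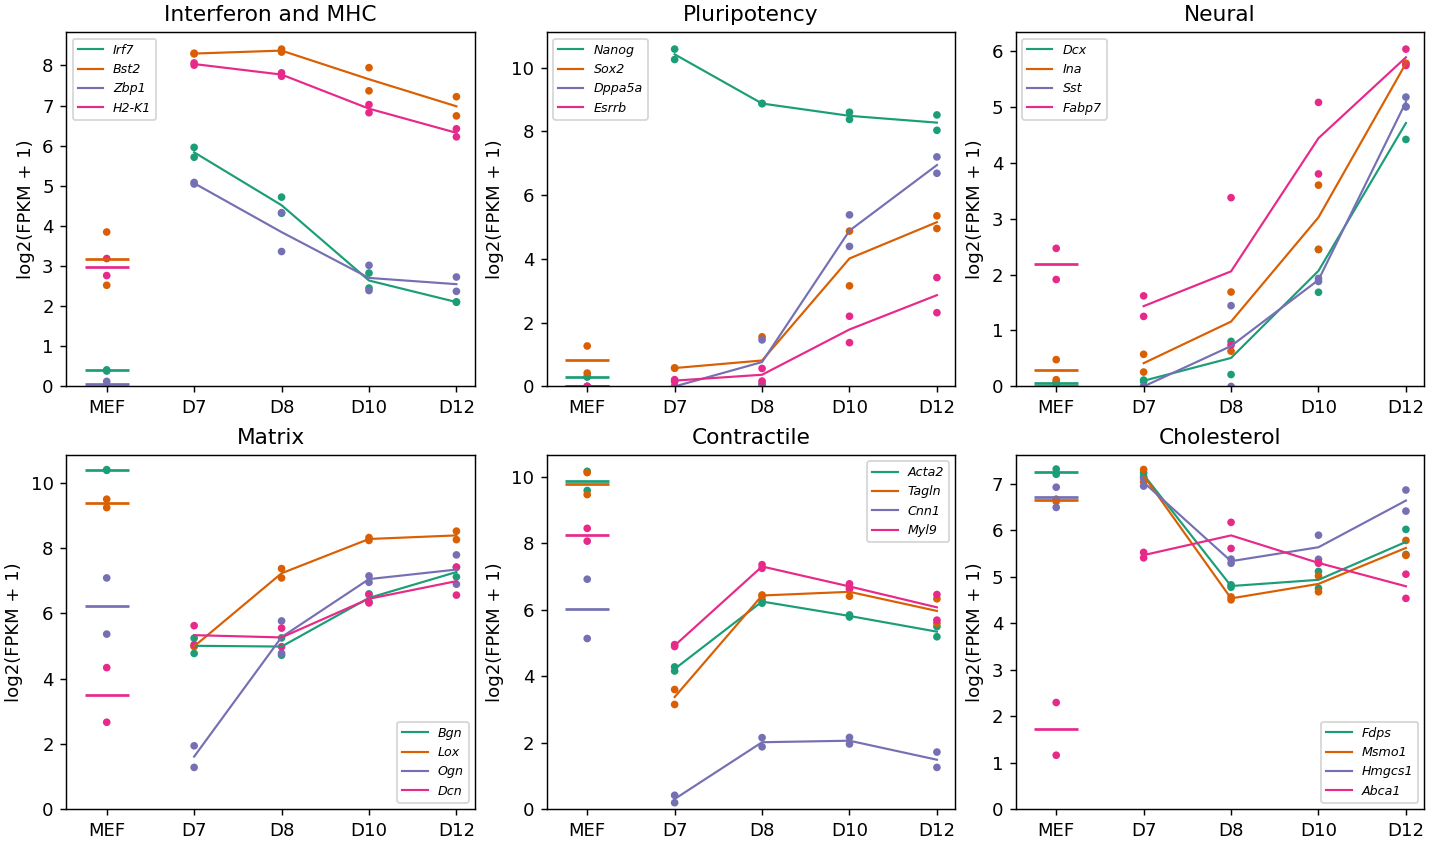
log2(FPKM + 1) of named genes in MEF, at D7 and on the 3 late days. Points are single libraries, lines join the means of each day, bars mark the MEF means, and days are evenly spaced and not to scale. Irf7 fell to 3.31 and 3.28 FPKM by D12 while Dppa5a reached 102 and 146, Dcx 20.3 and 31, and Bgn 138 and 170.

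Of 36 target and feedback genes of the kinase ERK, 1 was called higher than MEF and 17 lower, beside 12.4% and 4.49% of all genes, and at D7, before MEK inhibition, 8 were higher and 13 lower. Egr1, the immediate early zinc finger factor, measured 34.2 and 37.6 FPKM in MEF, 31.3 and 27.7 at D7 and 0.456 to 7.18 late, 3.39 below D7. Dusp5, a nuclear ERK phosphatase, measured 21.3 and 27.3 in MEF, 5.25 and 4.66 at D7, and 1.21 to 4.45 late. Hbegf, an EGF receptor ligand, measured 15.1 and 32.4 in MEF and 1.15 to 2.02 late, and it was already at 0.797 and 0.788 on D7. Compared with D7, 2 of the 36 were higher and 11 lower, beside 5.1% and 3.91% of all genes.

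Wnt target genes were divided. Of 34, 9 were higher and 5 lower than MEF, and 10 were higher than at D7, beside 5.1% of all genes. Axin2, the feedback inhibitor of beta-catenin, measured 2.02 and 0.504 FPKM in MEF, 7.27 and 7.62 at D7 and 16.1 to 24.5 late. Apcdd1, a membrane inhibitor of Wnt, measured 6 and 10.4 in MEF, 81.2 and 76.4 at D7 and 185 to 271 late. Fzd7, a Wnt receptor, and Cd44, the hyaluronan receptor, were lower, at 11.8 to 17.3 against 39.2 and 42.9, and 20.7 to 31.9 against 41.7 and 108. Without the second MEF library 4 were called higher and 3 lower. Of 48 Wnt ligands, receptors and inhibitors, 10 were higher and 6 lower, and with the GC and length trend removed 4 were higher and 10 lower.

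Of 37 genes of the LIF and Stat3 axis, 14 were higher and 4 lower than MEF, against 13 and 6 at D7, and without the first MEF library 2 were lower. Pim2, a survival kinase, measured 127 and 113 FPKM at D7, 90.4 and 98.9 at D8, and 45.2 and 42.9 at D12, against 1.45 and 1.72 in MEF. The signalling subunit Il6st measured 77.4 to 109 and overlapped MEF at 123 and 57.2. Of 57 TGF-beta and BMP genes, 12 were higher and 11 lower, beside 12.4% and 4.49% of all genes. Tgfb3, a TGF-beta ligand, measured 7 to 14.5 against 72.3 and 111, Inhba, an activin subunit, 1.35 to 2.59 against 11.9 and 32.4, and Id3, a BMP target, 53.6 to 105 against 269 and 146.

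Most cholesterol genes were lower in the late libraries than at D7. Of 30 genes of cholesterol synthesis and uptake, 1 was higher and 7 lower than MEF, while at D7 9 were higher and 1 lower. Compared with D7, 21 were lower and none higher, beside 3.91% and 5.1% of all genes. By day, 13 were lower than MEF at D8, 15 at D10 and 3 at D12. With the GC and length trend removed 15 were lower than MEF, and without the first D12 library 11. Fdps, farnesyl diphosphate synthase, measured 159 and 147 FPKM in MEF, 150 and 142 at D7, 26.4 and 27.4 at D8, 26 and 33.7 at D10, and 64 and 43.7 at D12. Msmo1, a sterol demethylating oxidase, measured 101 and 97.7 in MEF, 131 and 158 at D7, 22.7 and 21.7 at D8, and 54.1 and 43.1 at D12, a rise of 1.09 between the latter days. Abca1, the cholesterol exporter, was the member above MEF, at 22.2 to 71.2 against 3.9 and 1.23. Apoe, the lipid carrier, measured 82.5 to 209 against 19.5 and 5.53. In the fatty acid and lipid storage list 4 of 29 were higher and 5 lower, and in glycolysis 4 of 27 were higher and 4 lower, beside 12.4% and 4.49% of all genes. Without the first MEF library 8 glycolysis genes were lower, without the second 2 were higher and 2 lower, and without the first D12 library 7 were lower. Without the second D12 library 3 of the lipid list were lower.

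Of 60 cell cycle and DNA replication genes, 1 was higher and 14 lower than MEF, beside 12.4% and 4.49% of all genes, and at D7 none was higher and 14 were lower. Without the first D10 library 8 were lower. The mitotic kinase Plk1 measured 7.62 to 14.3 FPKM against 32.8 and 29.9, and Cdc20, an activator of the anaphase-promoting complex, 10.7 to 22.2 against 45.6 and 47.6. Of 32 p53 targets and cell cycle inhibitors, 6 were higher and 1 lower, a higher share near that of all genes. The senescence-linked Cdkn2a measured 43.8 to 70.1 against 22.6 and 20.4, and the imprinted Cdkn1c 180 to 250 against 80.8 and 20. Cdkn1a, the p53 target p21, measured 190 to 266 against 128 and 197, a difference of 0.55 that was not called.

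Some Hox genes, which record axial position in fibroblasts, changed within the late window. Of 39, 3 were higher and 4 lower than MEF over the 3 days together, and 2 were lower without the first D8 or the first D10 library. At D8 none was higher and 12 were lower, and at D12 10 were higher and 2 lower. From D8 to D12, 13 were higher and none lower, beside 3.05% and 1.12% of all genes. Hoxb5 measured 2.87 and 4.05 FPKM in MEF, 2.2 and 3.38 at D8, 4.66 and 5.74 at D10, and 49.1 and 38.8 at D12. Hoxb9 measured 26.1 and 26.2 in MEF, 2.54 and 4.16 at D8, and 14.2 and 45.7 at D12, so its D12 libraries stood on either side of MEF.

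Growth and imprinted genes varied with the MEF library used. The fetal growth factor Igf2 measured 2000 and 804 FPKM in MEF and 191 to 353 late, and the imprinted RNA H19 5080 and 1420 in MEF and 639 to 1420 late. Nnat, neuronatin, measured 112 to 275 against 8.75 and 8.16. Of 41 imprinted genes 8 were higher and 5 lower, but 10 and 3 without the first MEF library and 7 and 8 without the second. Of 19 IGF genes 3 were higher and 5 lower, or 3 lower without the first MEF library. Igf1 measured 22.3 to 34 against 5.17 and 1.12, and the IGF-binding Igfbp7 16.1 to 41.4 against 305 and 379.

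Of the remaining lists, 10 of 36 oxidative stress and metallothionein genes, 4 of 73 chromatin regulators and 9 of 34 epithelial junction genes were higher, with none, none and 4 lower, beside 12.4% and 4.49% of all genes. The share of chromatin regulators called higher was below that of all genes, and without the second MEF library 2 were higher. None of 14 germline and 2-cell genes was called. Metallothionein Mt2 measured 135 to 237 FPKM against 48.6 and 17.7. The tight junction protein Cldn1 measured 39.7 to 75.6 against 0.486 and 0.355, while E-cadherin (Cdh1) measured 0.122 and 0.616 at D8 and 2.46 and 7.15 at D12, against 185 in mES.

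Markers of other cell types moved in places with these results. Macrophage markers summed to 10.5 to 50.9 FPKM late and 4.54 and 11.4 in MEF. Of 8 tested 1 was called higher, lysozyme Lyz2, which measured 18.6, 31.2 and 17 in the first libraries of the 3 days and 5.97, 8.25 and 5.08 in the second. It was not called without the first library of any late day, without either MEF library, or with quantile normalization or the GC and length trend removed. The defining leukocyte gene Ptprc was at most 0.179 late. Of 5 endothelial markers Tek was higher, at 2.41 to 5.92, and Tie1 was at most 0.005. Smooth muscle markers had 1 of 9 higher and 7 lower and pluripotent markers 16 of 28 higher. Counts higher and lower were 3 and 2 of 11 epithelial, 2 and 1 of 4 keratinocyte, 0 and 1 of 6 trophoblast, 1 and 2 of 5 primitive endoderm, 0 and 1 of 5 adipocyte, 1 and 3 of 7 chondrocyte and bone, and 0 and 0 of 4 skeletal muscle markers. Of 40 RNA class and library genes, 2 were higher and 4 lower, or 1 lower without the second MEF library. The small nuclear RNA Rn7sk, which poly(A) selection should remove, measured 49.5 and 26 at D8 and 1.52 to 5.25 on the other 2 late days, with 2.37 and 0.771 in MEF. The part of these in the results was not tested.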

How the data were processed

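RNA was sequenced as poly(A)-selected paired-end libraries. Per the labels, the authors used Trim Galore 0.6.4, HISAT2 2.2.1 and StringTie 2.2.1 with mm10, and deposited FPKM per gene symbol; the annotation and the use of strand are not given in the sources used here. The authors' GFOLD analysis needs reads and was not run. The table holds 37108 genes in 34 libraries. FPKM were taken as deposited, and genes at 1 FPKM or more in at least 2 of the 33 libraries fitted (16915) were tested as log2(FPKM + 1), so that differences of low genes are understated. limma 3.58.1 (R 4.3.3) fitted 1 mean for each of 17 groups with an intensity trend. Contrasts were two-sided with Benjamini-Hochberg adjustment over all genes tested, and a call needed an adjusted p under 0.05 and 1 log2 unit. The late mean weighs the 3 days equally. Absolute depth is unknown. Relative depth was read from whole multiples in the low values of 1446 genes, and it is not an interval on any value. In simulated data for the late comparison, 195 of 200 genes changed by 2 log2 units were recovered among 16915. The changed genes had a mean log2(FPKM + 1) above 1. Each gene had the same spread in all simulated libraries, with no difference in depth. The recovery therefore does not cover low genes or unequal depth.

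Members, gene lists and tests were chosen with earlier results of these data known, so list counts are descriptions. Named genes were the 15 largest and 15 smallest late differences (called, 5 FPKM or more, no overlap with MEF, symbols of predicted, unnamed and small RNA genes and of ribosomal protein pseudogenes left out), the 4 largest differences of each list and its members at 100 FPKM or more in MEF, genes of the study's question, and the 5 largest and 5 smallest D12 against D8 changes among called genes. Other genes in the text were members of the fixed lists, named after their values were seen. Where the table holds a gene under an older and a current symbol, 7 older entries were dropped from the lists. Coordinates are GENCODE M21 on GRCm38 (mm10) and promoters RefSeq on GRCm38.p6. Alternatives changed the pseudocount, filter, scaling, groups fitted, replicate block and libraries. Some genes that the rule names are not reported here. A transcript table of the induced lines was not used here.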

Additional observations from a re-analysis of the deposited data

Results flagged for a closer look

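In 2 of 46 named genes, 1 of the 6 late libraries stood apart from the others, as chance gives in about 1 group in 20, and the 6 span 3 days. The gap was 0.64 of the range for Saa3, where the second D12 library measured 28.3 FPKM and the others 81.8 or more, and 0.719 for Ss18, where the first D12 library measured 24.7 and the others 28.3 or more.

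By limma's test of D12 against D8 (adjusted p under 0.05 and at least 1 log2 unit), 16 of the same 46 genes changed. For these the difference from MEF was not the same at D8 and D12. It rose by 6.18 for Dppa5a, 4.61 for Ina, 4.37 for Scrt2, 4.36 for Sst, 4.34 for Sox2, 2.5 for Esrrb, 2.29 for Bgn, 1.66 for Sall4 and 1.13 for Dpt. It was lower at D12 by a log2 change of -3.61 for Rn7sk, -2.78 for Fgl2, -2.47 for Thbs4, -2.41 for Irf7, -2.33 for Npy, -1.83 for Serpina3n and -1.73 for Ccl8. In all 16 genes both D12 libraries lay on the same side of both D8 libraries. The naming rule takes the 5 largest and 5 smallest changes called in this same test. The count of 16 and the lack of overlap are therefore partly fixed by the choice of genes. The 46 genes are those furthest from MEF, those of the study's question and the extremes of D12 against D8. Genes named only through a list were outside the 46, and some of them, such as Dcn, also changed.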

How the results depend on the processing

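Under every alternative run, the 7 comparisons kept calls in both directions. A pseudocount of 0.1 gave 4589 calls for the late libraries against MEF (3569 higher), 4183 for D10, 4392 for D12 and 2603 for late libraries against D7. Genes at a mean of 5 FPKM or more (9316 tested) gave 1596 for the late libraries against MEF (1152 higher, 444 lower). They gave 1761 for D8, 1583 for D10, 1503 for D12, 2099 for D7, 827 for late against D7 and 269 for D12 against D8. Fewer genes were tested here. For D12 against D8 the share called was also smaller than the 705 of 16915 in the main setting. Without the fold limit there were 7625 (5326 higher, 2299 lower), 6570, 5932, 6287, 7380, 4917 and 1683 in the same order of comparisons. Quantile normalization called 1168 lower, the GC and length trend left 1382 higher, and fitting only the compared groups left 371 for D12 against D8. Leaving out each replicate in turn gave 2703 to 3147 for late libraries against MEF (1914 to 2353 higher, 722 to 794 lower), 2911 to 3347 for D8, 2574 to 3005 for D10, 2738 to 3230 for D12, 3474 to 3787 for D7, 1342 to 1617 for late against D7 and 518 to 787 for D12 against D8. A lone sample left in a group was assumed to vary like the other groups. The replicate block gave 2857 calls. Deviations of same-numbered libraries had correlations of 0.0306 to 0.181 among the late days and -0.114 to 0.0263 with MEF. These are weak, and whether same-numbered late libraries shared a culture series is not known. Late means without 1 day and protein-coding genes alone (2512 calls), chosen after seeing the data, kept the counts within 1.5 times.

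Of the same 46 named genes under 21 alternatives, 946 of 958 values kept direction and side of the threshold. The exceptions were in genes close to no change or to the threshold. Ss18 changed sign without D8 (-0.0086), without D10 (-0.0032), with quantile normalization (-0.06), with the GC and length trend removed (-0.23), without D12 replicate 2 (-0.013) and without MEF replicate 1 (-0.045), and ranged from -0.045 to 0.082 when 1 replicate was left out. Thbd changed sign without D8 (0.026) and without MEF replicate 1 (0.45), with a range of -0.72 to 0.45. Rn7sk was no longer called without D8 (0.62) or without MEF replicate 2 (1.26), and Sox15 was called with a pseudocount of 0.1 (1.74) or with no fold limit (0.56). The medians of 42 lists, not taken relative to all genes, were followed in the same way. Of 879 values, 760 lay within 1 SD of the main median, where the SD is that of the 6 late libraries, and 119 moved further. No member of the endothelial, trophoblast and adipocyte marker lists reached a mean of 5 FPKM, so these gave no median there. The number near MEF was 5641, 5656 with TPM and 5666 with quantile normalization. Low genes in MEF are limited by its lower depth.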
